A study of Mus musculus with 4 samples.

Results

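Heme synthesis was followed here through 9 genes of mouse blood RNA, 8 coding for enzymes of the pathway (Alas1, Alas2, Alad, Uros, Urod, Cpox, Ppox and Fech) and Slc25a38 coding for the carrier that brings glycine into the mitochondrion. They were chosen by gene symbol, by the step they serve, with earlier results of these data known, and all 9 have values among the 17823 genes with values in the deposited expression table. The blood came from C57BL/6 mice labelled adult, which the study describes as aging mice. The control group (Ctrl) received PBS and the other group (Nar) received naringenin, a plant flavonoid, for 30 days, by injection into the tail vein. Each group has 2 libraries, numbered 1 and 3. The labels do not say that they came from separate animals, so p-values measure the spread between these libraries. The question asked of these libraries was which genes of the blood differ after Nar.

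Heme is an iron-bearing porphyrin ring, and most heme of the body is made in developing red cells, where it is fitted into globin chains. The path begins in the mitochondrion, where aminolevulinate synthase joins glycine to succinyl-CoA, runs through the cytosol, and returns to the mitochondrion, where ferrochelatase inserts iron. Aminolevulinate synthase comes in 2 forms from separate genes, Alas1 in cells of every kind and Alas2 in red cell precursors. Mature red cells have no mitochondria, and young red cells in the blood (reticulocytes) still carry messenger RNA of the pathway.

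Alas2 mRNA carries an iron-responsive element, a hairpin that iron regulatory proteins bind when iron is short, which holds back translation. A search of the start of protein-coding transcripts (the leading 150 bases, GENCODE M21) for a C, a stem of 5 base pairs (G-U pairs allowed) and a CAGTGN loop (N not being G) found it in Alas2 and in none of the other 8 members, and in 21 of 21877 genes overall (0.096%). It is shown 5′ to 3′ as DNA letters, with the bulged C and the loop in capitals:
Alas2 iron-responsive element, bases 90 to 106 of a transcript: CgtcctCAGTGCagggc

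The 250 bases before the start sites were taken from RefSeq (GRCm38.p6), which held windows for 8 of the 9 members, and not for Fech. Both strands were searched for GATA words (AGATAA and the variant ending in G, each also with T as the leading base), CCNCNCCC (bound by KLF1 and related factors), TGANTCA (bound by NF-E2 and related factors) and the palindromic motif of NRF1, a regulator of mitochondrial genes. The windows of Alas2, Alas1 and Cpox are shown to set the red cell form beside the general form and beside another gene with a GATA word. Capitals mark every match, and overlapping matches run together:
Alas2, chrX:150547167-150547416, plus strand: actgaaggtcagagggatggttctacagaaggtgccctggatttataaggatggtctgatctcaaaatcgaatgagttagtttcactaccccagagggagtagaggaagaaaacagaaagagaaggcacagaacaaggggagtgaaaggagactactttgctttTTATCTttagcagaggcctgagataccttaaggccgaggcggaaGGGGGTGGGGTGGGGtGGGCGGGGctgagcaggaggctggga
Alas1, chr9:106247731-106247980, minus strand: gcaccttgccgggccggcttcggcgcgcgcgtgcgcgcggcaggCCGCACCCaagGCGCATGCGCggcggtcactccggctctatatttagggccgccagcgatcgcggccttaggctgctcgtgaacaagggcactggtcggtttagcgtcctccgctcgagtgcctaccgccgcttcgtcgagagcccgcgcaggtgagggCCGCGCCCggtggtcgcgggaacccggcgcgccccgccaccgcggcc
Cpox, chr16:58669958-58670207, plus strand: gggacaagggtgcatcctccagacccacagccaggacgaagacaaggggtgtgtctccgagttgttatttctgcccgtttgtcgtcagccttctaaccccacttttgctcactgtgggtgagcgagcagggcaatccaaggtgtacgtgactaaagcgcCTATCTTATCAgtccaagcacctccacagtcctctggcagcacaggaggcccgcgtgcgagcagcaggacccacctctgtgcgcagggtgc

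The Alas2 window holds a GATA word 81 to 86 bases before the start and 4 CCNCNCCC matches, some of them overlapping, between 19 and 42 bases before it. Cpox has 2 GATA words that share a base, 81 to 91 bases before its start. The shown Alas1 window is the one at the second of its start sites listed by RefSeq. It has no GATA word and holds the NRF1 motif, the longest run of capitals, 186 to 195 bases before the start, with 2 CCNCNCCC matches. GATA words were found in 26.5% of all 32851 windows of this length, CCNCNCCC in 45.9%, TGANTCA in 6.75% and the NRF1 motif in 0.782%. By gene, with a match in at least 1 window, these shares were 29.7%, 48.5%, 7.82% and 0.877%. Of the 8 members with windows, 3 had a GATA word in at least 1 window (Alas2, Uros and Cpox), 5 had CCNCNCCC, 1 had the NRF1 motif (Alas1) and 0 had TGANTCA. These are letter matches and show no binding.

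Values are FPKM, fragments scaled to transcript length and to the mapped fragments of the library, and so can be compared between genes per length. Low values fell in steps from which about 22500000 to 23000000 fragments per library were estimated. Haemoglobin genes took between 92.6% and 96.4% of the summed FPKM. The median FPKM of the 5339 tested genes (mean of at least 0.5) was 1.85 and 1.97 in the Ctrl libraries against 0.89 and 0.74 in the Nar libraries, and their median log2 fold change was -1.07. All fold changes are differences of log2(FPKM + 0.1), Nar minus Ctrl, which understates the change of low genes. In whole blood, fewer cells of a type and less RNA per cell cannot be told apart. Neutrophil markers fell with Nar in 11 of 11 tested genes, from sums of 1737 and 1436 FPKM in Ctrl to 105 and 164 FPKM in Nar, and markers of monocytes in 4 of 6, beside 39.6% of all tested genes called lower and 0.187% higher. Among 15 tested erythroid markers 0 were called in limma, with 1 higher at an unadjusted p under 0.05 (Car2), and their sums were 2616 and 3307 FPKM in Ctrl against 3979 and 3141 in Nar. Of 6 B cell, 6 T cell and 7 platelet markers tested, 0 were called in limma, with 0, 2 and 1 lower at an unadjusted p under 0.05, beside 56.5% of all tested genes.

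The heme synthesis genes differed widely in level. Alas2, Fech and Urod stood apart from each other and from the rest in every library, in that order. The remaining 6 genes lay below 2 FPKM and their ranges overlapped with those of their neighbours. By mean over the 4 libraries their order was Ppox at 1.17 FPKM, Slc25a38 at 1.05, Alas1 at 0.758, Cpox at 0.635, Uros at 0.52 and Alad at 0.495. This order held in neither group alone, since Alas1 averaged 1.28 FPKM in Ctrl and 0.235 in Nar, the lowest of the 9 there, and Cpox 0.425 in Ctrl, the lowest there, and 0.845 in Nar. Alas2 was the most abundant gene of the table outside haemoglobin and ranked 5 among all genes, and Fech ranked 23 outside haemoglobin. Alas2 alone made up 92.5% of the mean summed FPKM of the 9 genes in Ctrl and 90.8% in Nar, and Fech a further 7.27% and 8.85%. The 9 genes together took 8.58% and 7.03% of the FPKM outside haemoglobin in Ctrl and 11% and 12.4% in Nar. Their summed FPKM overlapped, at 6419 and 7690 in Ctrl and 7239 and 7058 in Nar. All FPKM outside haemoglobin came to 74790 and 109400 in Ctrl and to 65960 and 56940 in Nar.

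**Figure D1:**
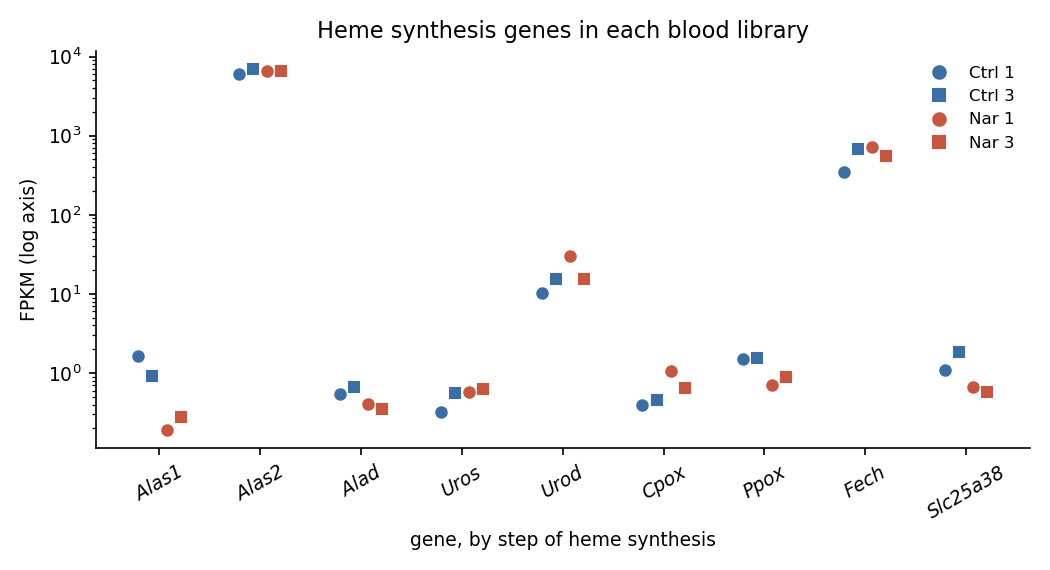
FPKM of the 9 heme synthesis genes (log axis) in the 2 Ctrl libraries (blue) and the 2 Nar libraries (red), with circles for number 1 and squares for number 3. Alas2 lies between 6055 and 6991 FPKM in all 4 libraries, while Alas1 lies at 0.92 or more in Ctrl and at 0.28 or less in Nar.

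Among the 8 members that could be tested, 2 were lower with Nar and 0 were higher at a Benjamini-Hochberg adjusted p under 0.05 in limma. Alas1 and Slc25a38 were the lower pair. Over all tested genes 39.6% were called lower and 0.187% higher. At an unadjusted p under 0.05, 3 members were lower (Ppox in addition) and 0 higher, beside 56.5% and 0.318% of all tested genes. Without regard to the test, Nar values lay wholly below Ctrl values in 3 tested members (against 78.3% of all tested genes) and wholly above in 2 (against 1.27%). The 2 above, Uros and Cpox, had a mean of at least 0.5 FPKM in Nar alone and Alas1 in Ctrl alone. These therefore passed the filter on low values through the group in which they were higher. Of the 15 tested erythroid markers, 6 lay wholly above and 1 wholly below. With median-of-ratios scaling, which levels the typical gene, 5 tested members (Alas2, Uros, Urod, Cpox and Fech) lay wholly above and 1 (Alas1) wholly below, against 21.1% and 20.8% of all tested genes. The same 5 were higher at an unadjusted p under 0.05 and 0 were lower, against 8.07% and 6.86%, and 0 members were called after adjustment in limma. The median log2 fold change of the 8 members was 0.18, beside -1.07 for all tested genes and 0.38 for the 15 tested erythroid markers. With a library left out neither of the lower pair was called, at log2 fold changes from -2.39 to -1.62 for Alas1 and from -1.43 to -0.73 for Slc25a38.

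Alas1, the aminolevulinate synthase of cells in general (NCBI Gene 11655, GRCm38 chromosome 9, 106233455 to 106248654), was at 1.64 and 0.92 FPKM in Ctrl 1 and 3 and at 0.19 and 0.28 FPKM in Nar 1 and 3. Both Nar values were well below the lower Ctrl value. The means were 1.28 ± 0.509 FPKM (SD, n = 2) in Ctrl and 0.235 ± 0.0636 (SD, n = 2) in Nar. The difference was -2.005 on the log2 scale, a 4.01-fold lower level, with a standard error of 0.426 and an adjusted p of 0.015 in limma. It lay at percentile 7.1 of all tested genes, below their median by 0.93. Roughly 80 and 44 fragments stood behind the Ctrl values and 9 and 14 behind the Nar values. With median-of-ratios scaling it was -1.04 (limma adjusted p = 0.354). Alas1 passed the filter through its Ctrl values, and without that filter its limma adjusted p was 0.113. With a pseudocount of 1 the difference was -0.87 (limma adjusted p = 0.0277). With a library left out the difference stayed between -2.39 and -1.62, and the limma adjusted p was 0.0826 without Ctrl 1, 0.0871 without Ctrl 3, 0.0746 without Nar 1 and 0.0608 without Nar 3. Without Ctrl 1 or Ctrl 3 limma called 0 of the 5339 genes, with 2682 and 2133 genes at an unadjusted p under 0.05.

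Alas2, the red cell form (NCBI Gene 11656, chromosome X, 150547375 to 150570638), was at 6055 and 6991 FPKM in Ctrl and at 6492 and 6487 FPKM in Nar. The Nar values lay between the Ctrl values. Its log2 fold change was -0.00 (standard error 0.226, limma adjusted p = 0.989), with a 95% interval from -0.51 to 0.51, which holds 0 and does not reach the median of all tested genes. With haemoglobin genes removed the fold change was 0.56, and after median-of-ratios scaling 1.17 (adjusted p = 0.0864 in limma). About 282448 to 320421 fragments per library stood behind these values, a counting error of about 0.19% at the lowest. The Ctrl values differed by more than that, while the Nar values differed by less.

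**Figure D2:**
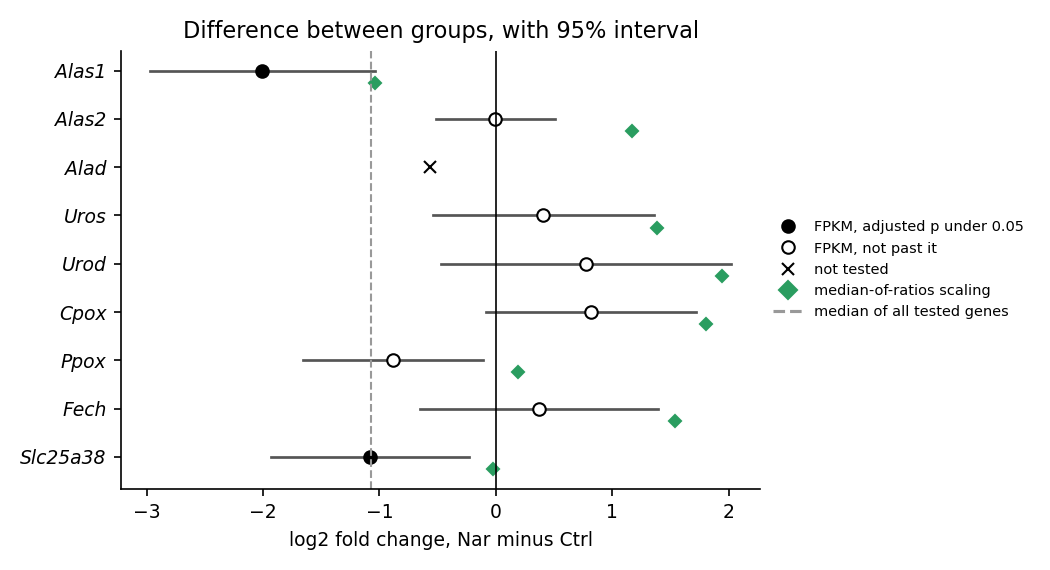
Log2 fold change (Nar minus Ctrl) of each heme synthesis gene on FPKM, with 95% limma intervals (filled circles passed an adjusted p of 0.05, open circles did not, the cross marks Alad, which was not tested) and after median-of-ratios scaling (green diamonds). The dashed line is the median of all tested genes at -1.07. The intervals of Alas2, Urod, Uros, Cpox and Fech lie to the right of that line, and those of Alas1, Slc25a38 and Ppox hold it.

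The synthase forms were also set against each other within each library. Alas2 exceeded Alas1 by 3480-fold in Ctrl 1 and 6850-fold in Ctrl 3, and by 22400-fold in Nar 1 and 17100-fold in Nar 3, each after adding 0.1 FPKM. Both Nar ratios were higher than both Ctrl ratios, by 2.00 on the log2 scale between the means. An exact permutation test of 2 against 2 libraries gives a two-sided p of 0.33, the smallest it can give, and 0.5 after adjustment over the 3 ratios compared. The size depends on the pseudocount, at 0.86 with 1 FPKM added and 2.36 with 0.01. Through the added 0.1 it also moves with scaling, to 2.21 with median-of-ratios scaling and 2.38 with haemoglobin genes removed.

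The glycine carrier Slc25a38, which red cell precursors need for heme synthesis (NCBI Gene 208638, chromosome 9, 120110374 to 120124504), was at 1.1 and 1.85 FPKM in Ctrl and at 0.67 and 0.58 FPKM in Nar. The groups did not overlap. The log2 fold change was -1.08 (standard error 0.375, limma adjusted p = 0.0477), 2.11-fold lower, and lay close to the median of all tested genes. It was -0.02 after median-of-ratios scaling. With a pseudocount of 1 the adjusted p from limma was 0.0656. Its partner at the cell surface, the glycine transporter Slc6a9, was at 0.38 and 0.42 FPKM in Ctrl and 0.66 and 0.7 in Nar (log2 fold change 0.64, limma adjusted p = 0.176), and passed the filter through Nar alone.

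Alad, which condenses aminolevulinate into porphobilinogen in the cytosol (NCBI Gene 17025, chromosome 4, 62509169 to 62519918), was at 0.55 and 0.67 FPKM in Ctrl and at 0.41 and 0.35 in Nar. Nar values were lower as deposited (log2 fold change -0.56) and higher after median-of-ratios scaling (0.41). With a mean of 0.495 FPKM it fell just under the filter and was not tested, while Uros at 0.52 was the member just inside it. Uros closes the porphyrin ring (NCBI Gene 22276, chromosome 7, 133686243 to 133710072), and was at 0.32 and 0.56 FPKM in Ctrl and at 0.57 and 0.63 in Nar. Nar 1 exceeded Ctrl 3 by 0.01 FPKM, the last decimal of the table. Its log2 fold change of 0.41 had a 95% interval from -0.54 to 1.36 (limma adjusted p = 0.406), and it was 1.39 with median-of-ratios scaling (limma adjusted p = 0.143). It was 0.08 without Ctrl 1 and 0.74 without Ctrl 3. For these 2 genes between 10 and 26 fragments stood behind each value, a counting error of about 32% for Alad and 28% for Uros at the lowest values.

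Urod, which trims the side chains of the ring in the cytosol (NCBI Gene 22275, chromosome 4, 116989965 to 116994413), was the third member by level. It was at 10.2 and 15.5 FPKM in Ctrl and at 30.2 and 15.4 FPKM in Nar. Nar 1 stood alone, while Nar 3 and Ctrl 3 were nearly the same. The log2 fold change was 0.78 with a 95% interval from -0.47 to 2.02 (limma adjusted p = 0.24), at percentile 99.2 of all tested genes. With median-of-ratios scaling it was 1.94 (limma adjusted p = 0.0843) and the groups did not overlap. On FPKM it was 0.48 without Ctrl 1, 0.29 without Nar 1 and 1.26 without Nar 3.

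Cpox and Ppox act in sequence in the mitochondrion, catalyzing successive oxidation steps before iron is inserted, and their differences pointed in opposite directions on FPKM. Cpox (NCBI Gene 12892, chromosome 16, 58670292 to 58717636) was at 0.39 and 0.46 FPKM in Ctrl and at 1.05 and 0.64 in Nar, without overlap. Its log2 fold change of 0.82 had a 95% interval from -0.09 to 1.72 (limma adjusted p = 0.112) and lay at percentile 99.4. It was 1.80 with median-of-ratios scaling (limma adjusted p = 0.0664) and, on FPKM, 0.50 without Nar 1 and 0.36 with a pseudocount of 1. Ppox (NCBI Gene 19044, chromosome 1, 171275990 to 171281186) was at 1.52 and 1.56 FPKM in Ctrl and at 0.7 and 0.89 in Nar, also without overlap. Its log2 fold change of -0.88 had a 95% interval from -1.65 to -0.11 with a limma adjusted p of 0.0638, and it was 0.20 after median-of-ratios scaling, where the groups overlapped. Between 28 and 74 fragments stood behind the values of Cpox and between 29 and 64 behind those of Ppox.

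Fech, ferrochelatase, carries out the last step and itself holds an iron-sulfur cluster (NCBI Gene 14151, chromosome 18, 64452914 to 64490251). It was at 348 and 678 FPKM in Ctrl and at 714 and 552 FPKM in Nar. Ctrl 1 was the low library, and the other Ctrl value lay between the Nar values. The log2 fold change was 0.37 with a 95% interval from -0.65 to 1.39 (limma adjusted p = 0.483), and it was -0.11 without Ctrl 1, 0.85 without Ctrl 3, 0.18 without Nar 1 and 0.56 without Nar 3. With median-of-ratios scaling it was 1.54 (limma adjusted p = 0.106) and the groups did not overlap. Within a library Fech stood at 0.0575 and 0.097 of the Alas2 level in Ctrl and at 0.11 and 0.0851 in Nar, so that the groups overlapped (exact permutation p = 0.67, two-sided). Against Ppox, the enzyme that feeds it, Fech was 215-fold and 408-fold higher in Ctrl and 892-fold and 557-fold higher in Nar, a difference of 1.25 on the log2 scale (exact permutation p = 0.33, two-sided, adjusted 0.5).

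**Figure D3:**
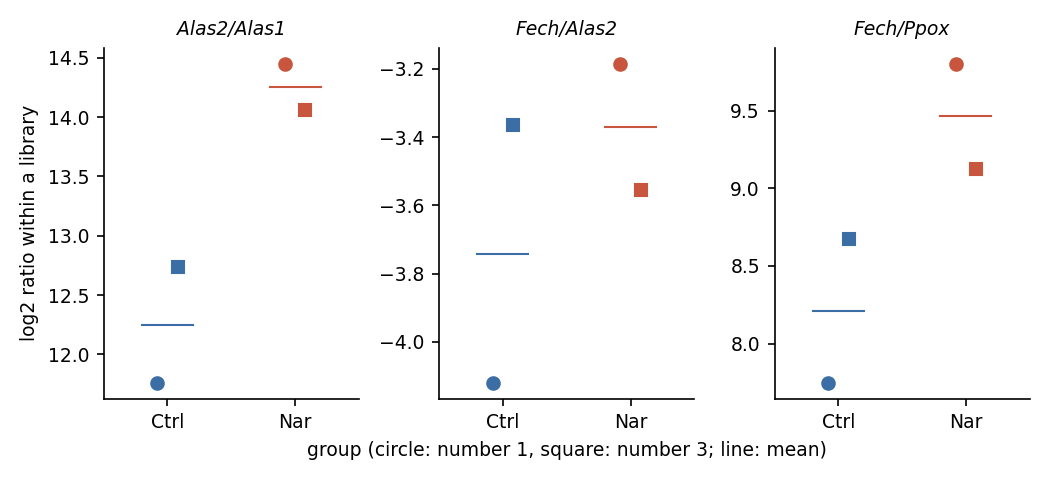
Log2 ratio of 2 heme synthesis genes within each library, after adding 0.1 FPKM to each (lines are group means, 2 libraries a group). The Nar libraries lie above the Ctrl libraries for Alas2/Alas1 and Fech/Ppox. For Fech/Alas2, Nar 1 lies above both Ctrl libraries and Nar 3 between them.

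Differences also varied with the level of a gene over the whole table. The median log2 fold change was -1.11 in 4256 genes with a mean of 0.5 to 5 FPKM, -0.98 in 868 genes of 5 to 50 FPKM, -0.615 in 184 genes of 50 to 500 FPKM and -0.03 in 31 genes of at least 500 FPKM. Alas2 and Fech belong to the last class, in which 5 genes were called lower and 2 higher. Alas2, at -0.00, lay close to the median of that class, and Fech, at 0.37, above it. Urod belongs to the class of 5 to 50 FPKM and lay above its median. Among the low members, Cpox and Uros lay above the median of their class, Ppox and Slc25a38 near it, and Alas1 below it.

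**Figure D4:**
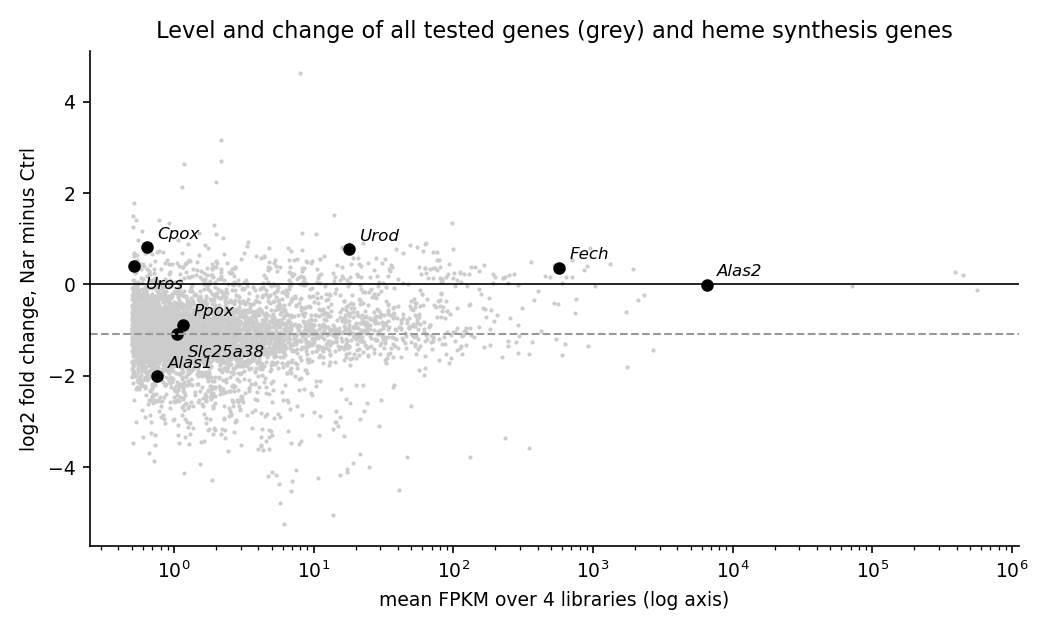
Mean FPKM over the 4 libraries (log axis) against the log2 fold change (Nar minus Ctrl) for 5339 tested genes (grey) and the 8 tested heme synthesis genes (black, named). The dashed line marks the median of -1.07. Alas2 lies at 0, Urod, Uros, Cpox and Fech lie above it, and Alas1 lies at -2.005.

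Genes that surround the pathway were grouped into 5 lists. They hold 57 genes with values, of which 31 were tested, 5 were lower with Nar and 0 were higher in limma, beside 39.6% and 0.187% of all tested genes. At an unadjusted p under 0.05, 10 were lower and 0 higher, beside 56.5% and 0.318%. Of the 5 called, Hmox1, Slc25a28, Isca2 and Bach1 passed the filter on low values only through Ctrl, where they were higher. After median-of-ratios scaling 0 of the 31 were called in limma, and at an unadjusted p under 0.05, 13 were higher and 2 lower (Fbxl5 and Bach1), beside 8.07% and 6.86% of all tested genes. The log2 fold changes of the 5 then lay between -1.74 and -0.35. The other Reactome genes of heme synthesis and degradation numbered 9, of which 4 were tested and 1 was lower, Hmox1, which also belongs to the breakdown list.

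In each list that follows the share called lower was under the 39.6% of all tested genes. Of 10 tested genes for mitochondrial supply and transport, 1 was lower. Slc25a28 (mitoferrin 2), an iron importer of cells in general, was at 1.72 and 1.28 FPKM in Ctrl and at 0.36 and 0.55 in Nar (log2 fold change -1.54, limma adjusted p = 0.0202). Slc25a37 (mitoferrin 1), the iron importer of red cell precursors, was at 46.9 and 80.9 FPKM in Ctrl and at 101 and 77.8 in Nar (log2 fold change 0.53, limma adjusted p = 0.388). With median-of-ratios scaling Slc25a28 was at -0.50 (limma adjusted p = 0.729) and Slc25a37 at 1.70 (limma adjusted p = 0.1005). The difference between the 2 forms was not tested. Slc25a39, a mitochondrial glutathione importer, had a log2 fold change of 0.17 at a mean of 608 FPKM in Ctrl, and Fam210b, a mitochondrial protein of red cell precursors, one of 0.52. Tspo, a porphyrin-binding protein of the outer membrane, was at 31.7 and 74.9 FPKM in Ctrl and at 18.0 and 16.3 in Nar (log2 fold change -1.50, limma adjusted p = 0.0607).

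Iron-sulfur cluster assembly supplies the cluster of ferrochelatase. Of 8 tested genes 1 was lower, Isca2, at 0.71 and 1.08 FPKM in Ctrl and at 0.28 and 0.3 in Nar (log2 fold change -1.33, limma adjusted p = 0.0353). Its abundant relative Isca1 was at 498 and 704 FPKM in Ctrl and at 628 and 584 in Nar (log2 fold change 0.03, limma adjusted p = 0.947). The scaffold gene Iscu, the glutaredoxin gene Glrx5 and Bola3 had log2 fold changes of 0.24, 0.38 and -0.20, with groups that overlapped.

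Of 5 tested genes for heme breakdown, export and uptake, 1 was lower. Hmox1, the inducible heme oxygenase, was at 1.88 and 1.12 FPKM in Ctrl and at 0.52 and 0.3 in Nar (log2 fold change -1.64, limma adjusted p = 0.0214). Hmox2, the constitutive form, was at 5.89 and 6.61 FPKM in Ctrl and at 4.78 and 9.38 in Nar. Blvrb, a biliverdin reductase abundant in red cells, was at 40.3 and 118 FPKM in Ctrl and at 128 and 109 in Nar (log2 fold change 0.78, limma adjusted p = 0.276). The heme transporter Slc48a1 was at 87.1 and 137 FPKM in Ctrl and at 134 and 122 in Nar.

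Of 7 tested regulators, 2 were lower. Fbxl5, the iron-sensing subunit of the ligase that removes an iron regulatory protein, was at 5.6 and 6.26 FPKM in Ctrl and at 0.58 and 0.93 in Nar. The difference was -2.85 on the log2 scale with a standard error of 0.399 (limma adjusted p = 0.00439). Bach1, a repressor that heme releases from DNA, was at 1.74 and 2.02 FPKM in Ctrl and at 0.54 and 0.25 in Nar (log2 fold change -2.06, limma adjusted p = 0.0108). The erythroid factors Gata1 and Nfe2 were highest in Ctrl 3, at 12.6 and 57.0 FPKM, against 4.23 and 20.9 in Ctrl 1. In Nar 1 and 3 Gata1 was at 3.42 and 3.06 FPKM and Nfe2 at 19.8 and 11.3 FPKM, with limma adjusted p-values of 0.112 and 0.129. Platelet markers summed to 2117 FPKM in Ctrl 3 and to between 428 and 647 FPKM in the other libraries, and their part in the values of Gata1 and Nfe2 was not tested. Eif2ak1, the heme-regulated kinase that slows translation, had a log2 fold change of -0.46 (limma adjusted p = 0.481). Monocyte markers summed to 341 and 411 FPKM in Ctrl and to 139 and 95.7 in Nar. The part of the lower neutrophil and monocyte marker levels in the lower values of Alas1, Hmox1, Fbxl5, Bach1, Slc25a28 and Isca2 was not tested.

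**Figure D5:**
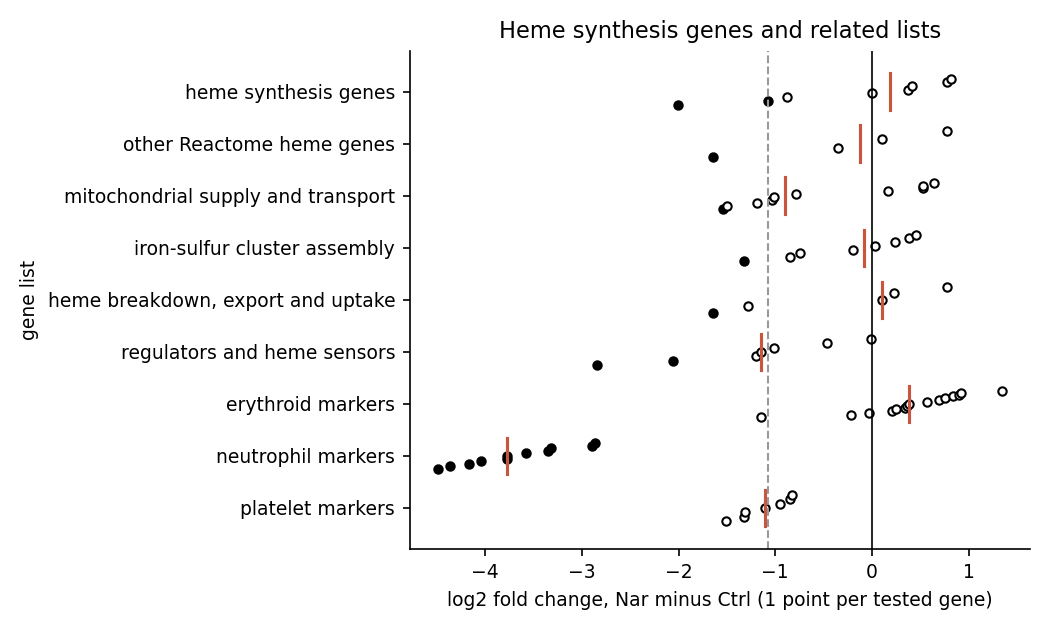
Log2 fold change (Nar minus Ctrl) of each tested gene in the heme synthesis genes, 5 related lists and 3 marker lists (filled points passed a limma adjusted p of 0.05, red lines are list medians, the dashed line is the median of all tested genes). Neutrophil markers lie between -4.49 and -2.87, and heme synthesis genes between -2.005 and 0.82.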

How the data were processed

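RNA from blood of Ctrl and Nar mice was sequenced after oligo(dT) selection, with 2 libraries a group. FPKM values of each library were deposited by the authors with 2 decimals, and 0 columns were left over. The paper's methods name bowtie-2 and reference gene sequences, while the submitters' processing notes list TopHat2, Cufflinks and GRCm38 without versions. Of 23136 genes listed, 5313 were blank and were left out.

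Genes were tested if their mean FPKM reached 0.5 (5339 genes), on log2(FPKM + 0.1) with limma 3.58.1 in R 4.3.3 (eBayes with a trend), and p-values were adjusted over all of them by the Benjamini-Hochberg method. The limma step and the depth estimate were tested on simulated data. DEGseq, used in the study, needs read numbers. Depth was estimated from steps in values of 0.02 to 0.3 FPKM, in genes with 1 protein-coding transcript under 2000 bases. At the best step 64.0% to 66.7% of these values lay within 0.2 of a whole fragment, so fragment numbers are approximate, use 1 GENCODE M21 transcript length a gene, and cover counting error only. The Reactome list was read from gene sets installed with the R packages. Plots were drawn with matplotlib 3.10.9.

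The members and lists were chosen with earlier results of these data known. Genes named from the lists were up to 4 with the highest mean FPKM and up to 3 called genes with the largest change; Slc6a9 was added after its values were seen. A gene that this rule would name is not reported here. Fam46c was not found under that symbol among the erythroid markers. Alternatives were other pseudocounts, filters and scalings, limma without its trend, replicate blocks and each library left out.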

Additional observations from a re-analysis of the deposited data

How the results depend on the processing

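The count of 2 members lower with Nar became 1 with a pseudocount of 1, 1 without the trend and 1 with the replicate block. Over all 5339 tested genes 1825, 1786 and 1802 were called lower in these fits, beside 2113 as reported. It became 0 without the filter on low values, where limma called 0 of 16382 genes and 4978 had an unadjusted p under 0.05. It was also 0 with a mean FPKM of at least 5 (3 members tested, Alas1 and Slc25a38 not among them), beside 116 of 1083 genes called lower. With haemoglobin genes removed it was 0, beside 242 of 5329 genes, and with median-of-ratios scaling 0, beside 32 of 5339. With a library left out the log2 fold changes ran from -2.39 to -1.62 for Alas1 and from -1.43 to -0.73 for Slc25a38. Leaving out Ctrl 1 or Ctrl 3 gave 0 calls over all genes, with 2682 and 2133 genes at an unadjusted p under 0.05, and in these fits the lone library is assumed to vary like the others. The count higher was 0 in every setting.

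The median log2 fold change of the members was 0.0765 with a pseudocount of 1, -0.00369 without the filter, 0.37 at a mean FPKM of at least 5, 0.74 with haemoglobin genes removed and 1.28 after median-of-ratios scaling, where the median of all genes moved from -1.07 to -0.0016. It ran from -0.11 to 0.42 with a library left out.

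The count of related genes called lower, 5 as reported, was 0 without the filter. It was 0 at a mean FPKM of at least 5, which left out all 5, since their means lay below it. It was 1 with haemoglobin genes removed, beside 242 of 5329 genes, and 0 after median-of-ratios scaling, beside 32 of 5339. The count was 11 with the crossed replicate block, beside 3211 of the 5339 tested genes.

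With a pseudocount of 1 the log2 fold changes of Uros, Ppox and Slc25a38 shrank to 0.16, -0.50 and -0.59. Alas2 changed sign with haemoglobin genes removed (0.56), after median-of-ratios scaling (1.17) and without Ctrl 3 (0.10). Ppox changed sign after median-of-ratios scaling (0.20), and Fech without Ctrl 1 (range -0.11 to 0.85 with a library left out). With a library left out, the difference in log2 ratio ran from -0.00377 to 0.75 for Fech/Alas2, reversing without Ctrl 1, from 1.51 to 2.49 for Alas2/Alas1 and from 0.79 to 1.71 for Fech/Ppox. Scalings of the ratios, added after seeing the data, moved none of the 3 below 0. They can move a ratio within a library only through the added 0.1, so this is no check on the ratios.

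The libraries share the numbers 1 and 3, which nothing in the labels ties to a litter or day, and the deviations of same-numbered libraries from their group means had a correlation of -0.153 over genes. With the number as a replicate block Slc25a38 had an adjusted p of 0.0566. A crossed block, chosen after seeing the data, called 3 members lower, Ppox in addition, beside 3211 of the 5339 tested genes. The cause of these changes was not tested. Fits that left out libraries or genes also had smaller samples or lower gene numbers. Depth limits Alas1, Alad and Uros most, with as few as 9 to 13 fragments behind a value.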

Other observations

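Suclg1 and Sucla2 code for subunits of succinyl-CoA ligase, which interconverts succinate and succinyl-CoA, the compound that aminolevulinate synthase joins to glycine. Suclg1 was at 1.03 and 0.73 FPKM in Ctrl and at 0.28 and 0.49 FPKM in Nar, and Sucla2 at 0.57 and 1.02 FPKM in Ctrl and at 0.48 and 0.22 FPKM in Nar. Their log2 fold changes were -1.03 and -1.01, close to the median of all tested genes, with limma adjusted p-values of 0.0695 and 0.101, and both passed the filter on low values through Ctrl alone. Tmem14c, which moves a late porphyrin intermediate into the mitochondrial matrix, was at 3.62 and 5.15 FPKM in Ctrl and at 2.22 and 1.53 FPKM in Nar (log2 fold change -1.18, limma adjusted p = 0.0522). Abcb10, a partner of mitoferrin 1 in red cell precursors, was listed at only 0.14 to 0.2 FPKM and was not tested. Flvcr1, a heme exporter, was at 0.5 and 0.33 FPKM in Ctrl and at 0.12 and 0.03 FPKM in Nar, and was likewise under the filter. These genes were named after their values were seen.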
